A study of Equus caballus with 13 samples.

Results

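RAB GTPases and the proteins that regulate them were followed through RNA synthesis and RNA decay in cultured horse chondrocytes, the cells that make and maintain cartilage. Members were taken by gene symbol: RAB genes with a number and at most a letter, RABGAP1, RABGEF1, the RAB-named interacting and GTPase-activating proteins, the TBC1D genes and genes of GDP dissociation inhibitors such as GDI2. This gave 76 genes of the 11331 that had values in either of the authors' tables. The table for age listed 75 of them and the table for sex listed 76, the difference being RAB3D, a RAB of secretory granules. They included 36 RAB GTPases, 31 GTPase-activating proteins and other TBC1D genes, 5 RAB11 family interacting proteins, the inhibitor GDI2, the exchange factor RABGEF1, and RAB5IF, which shares the name pattern but is not known as a RAB regulator. All 76 symbols matched a RefSeq gene of the horse assembly TB-T2T, and 27 further symbols of that annotation that fit the pattern, RAB11B among them, were not analysed here.

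Wild-type chondrocytes from cartilage were compared in 3 groups: 5 samples from old female, 5 from young female and 3 from young male horses, with ages in years not stated. After 2 days in culture, every group received 4-thiouridine, a uridine analogue that marks newly made RNA, for 4 h, and all 13 samples were labelled. Whether unlabelled controls entered the authors' estimates is not given in the sources used here. The authors' tables gave a synthesis rate and a half-life per gene for each group, young female cells appearing in both tables. Unless stated, young female half-lives and rates are quoted from the age table, and in comparisons by sex from the sex table. Synthesis rates are in arbitrary units and half-lives were read as hours, since neither unit is stated in the file headers. The authors estimated each value over a whole group and not per sample, so none carries an SD, an n or a test, and the depth of the samples is unknown. Differences are described by their size against all genes of the same table.

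RAB proteins are small GTPases that mark the membranes of the cell and direct vesicle budding, movement and fusion. They are switched on by exchange factors and off by GTPase-activating proteins, most of which carry a TBC domain, and GDP dissociation inhibitors carry the inactive form through the cytosol. Chondrocytes depend on this traffic because they export large amounts of collagen and proteoglycan through the endoplasmic reticulum and Golgi and take up and recycle receptors and integrins.

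Marker genes were examined for the cell label, although being listed does not by itself tell cell types apart. All 10 chondrocyte markers examined were listed, among them COL2A1, ACAN and SOX9. Of 7 macrophage markers only CD14 was listed and of 5 endothelial markers only VWF, while PTPRC and PECAM1 were not among the genes analysed here. All 7 fibroblast markers were listed. Of their implied levels, 4 of 7 were past a log2 ratio of 1 downward in old cells and 5 of 7 upward in male cells. Their summed implied level (the level expected at steady state, in arbitrary units: the product of rate and half-life over ln 2) was 168533 in young female and 84848.5 in old female cells, and in the comparison by sex it was 160886 in young female against 398457 in young male cells. COL3A1 alone made up 133558 of the 168533 and 127504 of the 160886. COL1A1, the main collagen of fibroblasts, had a log2 ratio of implied level of −2.86 in old and 4.19 in male cells. In young female cells its implied level was 2776, against 478566 for COL2A1 and 664956 for ACAN. In bulk samples such as these, fewer cells of a type and less RNA per cell cannot be told apart. All 5 smooth muscle and pericyte markers were listed by sex and 3 by age. Their summed level was 28555 in young female against 41085.6 in male cells, with 1 past a log2 ratio of 1 upward (ACTA2, at 4.82) and 1 downward, and it was 29516.4 in young female against 8387.3 in old cells, with 2 of 3 past downward. CSPG4 alone made up 27383 of the 28555 and 28698 of the 29516.4. For osteoblast markers, 3 of 5 were listed. Their summed level was 4152.4 in young female against 21616 in male cells, with 2 past upward, and 4349.36 against 5170.49 in old cells, with 0 past. Of the 10 chondrocyte markers, 6 had implied levels past a log2 ratio of 1 upward in male cells and 1 was past it downward in old cells, with medians of 1.55 and −0.37. Some marker half-lives sat at 69.3 h, the highest value listed for any gene, so their implied levels rest on that ceiling. These were COMP, MATN3, CHAD, SNORC, COL1A2 and FAP in male cells, and CHAD and FAP in every group. The part of these marker shifts in the values below was not tested. Batch and group cannot be told apart either, because 12 batch labels covered 13 samples and only batch 10 held samples of more than 1 group.

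RAB transcripts in young female cells ranged from those almost wholly replaced within the labelling time to those that were mostly older than it. Apart from RAB3A, described below, half-lives ran from 0.931 h for TBC1D10A to 19.3 h for RAB13. The median was 3.26 h for the 75 members and 3.64 h for all genes of the table. Members lay mostly in the middle of the distribution: with all genes divided into 4 equal classes from short to long half-life, the classes held 16, 27, 23 and 9 members. A half-life of 1 to 24 h, a range chosen here around the 4 h of labelling, was listed for 73 of the 75 (97.3%), compared with 86.7% of all genes. Values under 1 h, such as those of TBC1D10A and RAB30 below, lie outside that range. No member was above 24 h in young female cells, where 7.38% of all genes lay. The direction of the small gap in medians depended on which genes were admitted, since among the 75% of genes with the highest mean synthesis rates the median was 2.90 h for 60 members and 2.81 h for all genes.

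The 5 longest half-lives belonged to 4 RABs and a TBC1D gene. RAB13, which acts at tight junctions and whose mRNA is known to localise to cell protrusions, had 19.3 h in young female, 18.4 h in old female and 23.0 h in young male cells. RAB28, a RAB linked to cilia, had 16.9, 17.2 and 27.0 h in the same order, and the male value was the only member half-life above 24 h in any group. RAB4B, of rapidly recycling endosomes, had 15.1, 11.9 and 16.5 h. TBC1D19 followed with 13.5, 16.7 and 22.5 h, and RAB15, of recycling endosomes, with 11.7, 12.5 and 20.5 h. At a constant level, a half-life of 19.3 h means that 13.4% of RAB13 transcripts would be new after 4 h.

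The shortest half-lives apart from RAB3A belonged to RABs and to TBC1D genes. RAB35, which recycles cargo from endosomes to the plasma membrane, had a half-life of 1.12 h in young female, 1.02 h in old female and 1.11 h in young male cells, so that 91.6% of its transcripts would be new after 4 h in young female cells. TBC1D10A and TBC1D10B, both GTPase-activating proteins for RAB35, had 0.931 and 1.06 h in young female, 1.17 and 1.01 h in old female, and 0.687 and 1.17 h in young male cells. Other proteins that act on RAB35 had longer half-lives: TBC1D10C, a relative of these, had 5.27, 5.75 and 5.10 h and TBC1D13 had 4.00, 2.92 and 4.92 h. The pairing of RAB35 with these proteins was made after their values were seen. RAB9A, which serves transport from late endosomes to the Golgi, had 1.10, 1.10 and 1.01 h. RAB40C, which carries a SOCS box and joins a ubiquitin ligase, had 1.11, 1.02 and 1.21 h. With RAB3A, TBC1D10A and TBC1D10B, these were the 5 members with the shortest young female half-lives, and RAB35 came next.

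**Figure D1:**
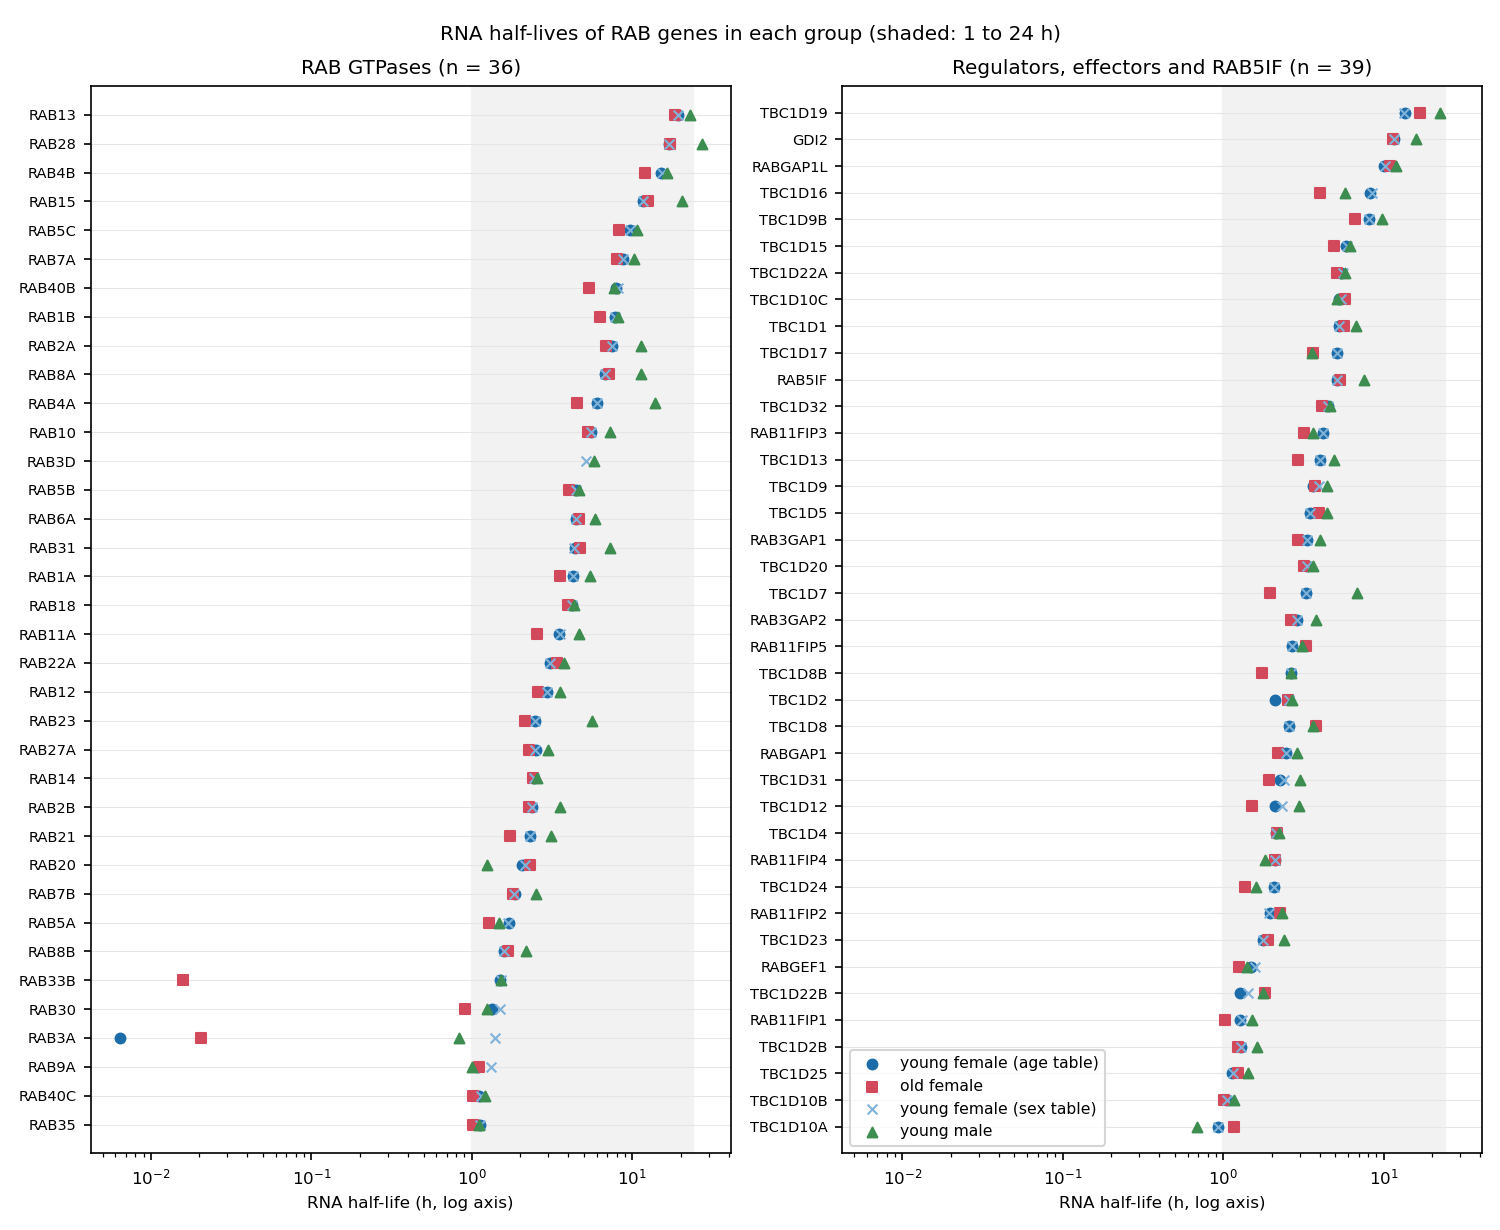
RNA half-life in hours (log axis) of RAB GTPases (left) and of regulators, effectors and RAB5IF (right), ordered by the young female value of the sex table, with 1 point per group and table as the authors' group estimate. Most genes keep their place across the groups, and the points far to the left are RAB3A in the age table and RAB33B in old cells.

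Transcripts of close relatives differed in half-life, and the order within each RAB number was the same in all the columns that listed it. Of the 4 columns, 2 are estimates of the same young female group, and the RAB3 pair was listed in only 2. Half-lives of all genes kept much of their order too, with a Spearman correlation of 0.97 between old and male cells. How often other pairs of genes keep their order was not counted. RAB5A, RAB5B and RAB5C all act on early endosomes. RAB5A had the shortest half-life of these, 1.69 h in young female, 1.29 h in old female and 1.49 h in young male cells. RAB5B lay between, at 4.45, 4.06 and 4.68 h, and RAB5C had the longest, at 9.66, 8.21 and 10.7 h. The highest value was 5.71 times the lowest in young female, 6.38 times in old female and 7.18 times in young male cells. After 4 h, 80.6% of RAB5A transcripts would be new in young female cells.

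RAB8A and RAB8B, which deliver cargo from the Golgi to the plasma membrane and the cilium, had 6.77 and 1.59 h in young female, 7.13 and 1.69 h in old female, and 11.4 and 2.19 h in young male cells. RAB2A and RAB2B, of traffic between Golgi and endoplasmic reticulum, had 7.48 and 2.36 h in young female, 6.84 and 2.26 h in old female, and 11.3 and 3.53 h in young male cells. RAB1A and RAB1B, which carry secretory cargo from the endoplasmic reticulum to the Golgi, were closer, at 4.25 and 7.83 h, 3.54 and 6.29 h, and 5.46 and 8.19 h. Within these 3 RAB numbers the fold between relatives stayed between 4.22 and 5.21 for RAB8, 3.03 and 3.20 for RAB2, and at most 1.84 for RAB1 over the 4 columns.

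RAB7A, which matures late endosomes and drives their fusion with lysosomes, had 8.71, 7.98 and 10.3 h in young female, old female and young male cells. RAB7B, which returns cargo from late endosomes to the Golgi, had 1.86, 1.80 and 2.51 h. RAB40B and RAB40C showed the widest gap of the 8 RAB numbers in young female cells, 7.88 against 1.11 h, and it was 5.39 against 1.02 h in old female and 7.74 against 1.21 h in young male cells. RAB4A and RAB4B came closest in male cells, where they differed by a factor of 1.20: 6.03 and 15.1 h in young female and 4.52 and 11.9 h in old female cells, but 13.8 and 16.5 h in young male cells. In 6 of the 8 RAB numbers the fold between relatives was at least 2 in all columns that listed them, the exceptions being RAB1 and RAB4. RAB3 was counted on the 2 columns of the sex table alone. Gaps of this size are common between genes, since the SD of log2 half-life, from the young female column by sex, was 1.06 over members and 1.61 over all genes. How the authors' counting treated reads shared by near-identical copies is not given in the sources used here.

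**Figure D2:**
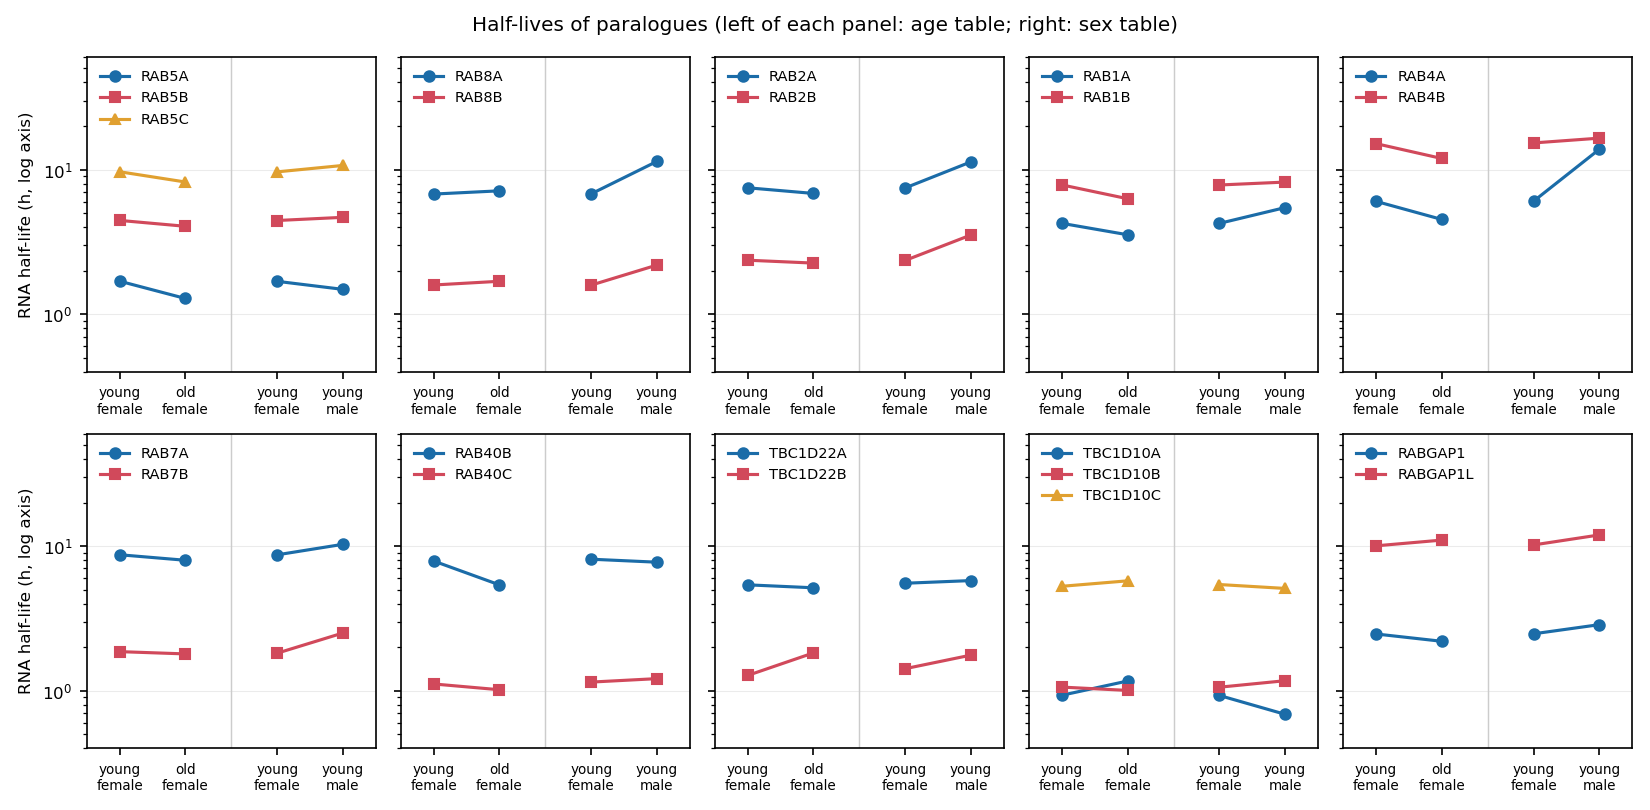
RNA half-life in hours (log axis) of relatives among RABs and their regulators, 1 line per gene between the 2 groups of a table, with the age table on the left and the sex table on the right of each panel. The lines of RAB5A, RAB5B and RAB5C stay apart in all columns, RAB4A approaches RAB4B in young male cells, and TBC1D10A and TBC1D10B cross in old cells.

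Regulators also varied in half-life. GDI2, an inhibitor that extracts RABs from membranes, had 11.6 h in young female, 11.5 h in old female and 15.8 h in young male cells. RABGAP1, which acts on RAB6, had 2.47, 2.20 and 2.86 h, while its relative RABGAP1L had 10.0, 11.0 and 11.9 h. TBC1D22A and TBC1D22B had 5.15 and 1.83 h in old female cells, 5.54 and 1.42 h in the young female cells of the sex table, and 5.77 and 1.76 h in young male cells. Of 8 groups of related regulators, 4 were at least 2-fold apart in all columns and 5 kept their order, and TBC1D8 with TBC1D8B, the TBC1D10 genes and the RAB11 family interacting proteins did not. RAB3GAP1 and RAB3GAP2, the subunits of a single complex that switches off RAB3 and switches on RAB18, were close in each group, at 3.34 and 2.87 h, 2.91 and 2.66 h, and 4.02 and 3.79 h.

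Old and young male cells share no sample, and the Spearman correlation of their half-lives across the 75 members listed in both tables was 0.93, compared with 0.97 across 10974 genes. These points are genes, which are not independent replicates, and they share the estimation method. Medians by role in young female cells were 5.51 h for the 13 RABs of recycling and delivery to the plasma membrane, 4.23 h for the 8 of the endoplasmic reticulum and Golgi and 3.06 h for the 7 of early endosomes. For the 31 GTPase-activating proteins and other TBC1D genes it was 3.26 h, and for the 5 RAB11 family interacting proteins 2.09 h. RAB21 and TBC1D15 were the only members that are direct neighbours among protein-coding genes of the RefSeq annotation. RAB21, which moves integrins through early endosomes, had 2.30, 1.73 and 3.10 h, and TBC1D15, which acts on RAB7, had 5.82, 4.92 and 6.20 h.

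Synthesis rates in young female cells spanned 14.2 for TBC1D16 to 2762 for RAB11FIP5, leaving out RAB3A. The other low values were 34.1 for TBC1D19, 38.2 for TBC1D32, 54.7 for RAB20 and 59.9 for TBC1D12, and the other high ones 2556 for TBC1D10B, 2455 for RAB1A and 2446 for RAB8A. The file headers do not say whether rates are scaled to transcript length, so these ends of the range describe the listed numbers and are not an order of transcript levels, and the summed marker levels above share this limit.

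Both tables hold a young group, so most members have a pair of estimates for it. The age table's header names its young group only as young. It was read as young female because, of the young samples, only the 5 young female ones are tied to that table by the labels. On that reading, both estimates of the young female group gave half-lives within 5% of each other for 66 of the 75 members (88%), and for 87.8% of all genes. TBC1D2 moved by a factor of 1.24, from 2.09 to 2.58 h, and RAB9A by 1.19, from 1.10 to 1.31 h. RAB3A, the RAB of synaptic and other regulated vesicles, stood apart from the rest. Its half-life was 0.00642 h in the age table and 1.40 h in the sex table, while its synthesis rate was 9665 and 48.8. The implied level of RAB3A differed by a factor of 1.10 between tables, since both values moved in opposite directions. That level ratio, sex table over age table, was still the highest of 10974 genes, whose median was 0.955. A similar value appeared for RAB33B, a Golgi RAB that binds the autophagy protein ATG16L1. Its half-life was 1.51 h in young female and 1.52 h in young male samples of the sex table, but 0.0158 h in old cells, with a synthesis rate of 14785 against 199 in young female cells of the same table. After 4 h transcripts with such half-lives would be almost wholly new. The half-lives and rates of RAB3A in the age table and RAB33B in old cells are therefore counted below as listed. Only their implied levels were interpreted.

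The comparison of old with young female cells asks how RNA kinetics change with age. Few RAB and regulator transcripts were past a log2 ratio of at least 1 in either direction, which is a fold of 2, and for half-life their share was close to that of all genes. For half-life 3 of 75 members were past it (4%), and so were 3.53% of all genes. By direction, 1 was longer (1.47% of all genes) and 2 were shorter (2.06%), but the longer one, RAB3A, turned to −6.10 with its young female value from the sex table, which made the split 0 and 3. They were RAB33B (log2 ratio −6.57) and RAB3A (1.67), which had the very short values just described, and TBC1D16. Among the 71 members whose old and young half-lives were both within 1 to 24 h, only TBC1D16 remained (1.41%), compared with 0.889% of all genes under the same limit. TBC1D16, which switches off RAB4A, had 8.27 h in young and 4.00 h in old cells (log2 ratio −1.05), with a synthesis rate of 14.2 against 24.7 and an implied level ratio of −0.25. Relative to the median of all genes its half-life ratio was −0.97, short of the threshold, and its low synthesis rate left it out of the upper 75% of genes by mean rate. Between the sexes its half-lives were 8.44 h in female and 5.75 h in male cells.

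For synthesis rate 2 of 75 members passed (2.67%), compared with 7.52% of all genes. They were again RAB33B with its very short old value, higher (4.59% of all genes), and RAB3A, lower (2.92%). With young female values from the sex table RAB3A turned to 6.15 and TBC1D31 also passed upward, which made 3 higher and 0 lower, and TBC1D2 passed downward relative to the median of all genes. For implied level 0 of 75 passed, compared with 4.12% of all genes (2.13% higher and 1.99% lower). The implied levels nearest the threshold were those of RAB7B, TBC1D7 and RAB20. RAB7B had a synthesis rate of 198 in young and 107 in old cells and half-lives of 1.86 and 1.80 h, which gave a log2 level ratio of −0.94. TBC1D7, a subunit of the TSC complex that restrains mTORC1, had rates of 82.8 and 77.3 and half-lives of 3.26 and 1.94 h, a level ratio of −0.85. RAB20, of early endosomes and phagosomes, had rates of 54.7 and 84.3 and half-lives of 2.06 and 2.31 h, a level ratio of 0.78. Thus, in the values as listed, RAB7B was lower mainly by its rate and TBC1D7 mainly by its half-life, while both parameters of RAB20 were higher in old cells.

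Differences in old cells are described by role as counts and medians, and none was tested. Implied levels lay below the median of all genes for 50 of the 75 members, with a median log2 ratio of −0.09 against 0.00 for all genes. Young female implied levels in the sex table were 0.955 times those of the age table at the median of members. The lowest such ratio was 0.954 and the highest, that of RAB3A, 1.10. Counts against 0 therefore depend on the scale of the table used. Taking young female values from the sex table instead gave 51 of 75 below the median of all genes, which was then 0.07, while the members' own median was −0.03 and 42 of 75 ratios were below 0. Among the 13 RABs of recycling and delivery, 12 were below that median, under both sources of young female values. Their own median ratio was −0.18 with 12 of 13 below 0, or −0.11 with 10 of 13 below 0 when young female values came from the sex table. RAB40B was the lowest of these, at −0.51, followed by RAB11A, the main RAB of recycling endosomes, at −0.37. RAB11A had a half-life of 3.50 h in young and 2.53 h in old cells with synthesis rates of 596 and 639. RAB4A had 6.03 and 4.52 h with rates of 82.6 and 99.8, and a level ratio of −0.14. The exception was RAB40C (0.10). None of these ratios reached the threshold, and without values per sample their size cannot be set against the spread between animals.

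RABs of the endoplasmic reticulum and Golgi had shorter half-lives in old cells in 7 of 8 and higher synthesis rates in 8 of 8, but against the median of all genes this held for 5 of the half-lives and 4 of the rates. These counts include RAB33B with its very short old value. RAB1A had 4.25 and 3.54 h with rates of 2455 and 2956, and its level ratio was 0.01. RAB30, a Golgi RAB, had 1.34 and 0.901 h with rates of 164 and 229, and a level ratio of −0.09. RAB6A, which runs retrograde transport within the Golgi, was the member of this role with the longer half-life in old cells, 4.64 against 4.43 h. Early endosome RABs were mixed, with 4 of 7 levels above the median of all genes. RAB5A had a half-life ratio of −0.40 and a synthesis ratio of 0.50, and its level ratio was 0.11. RAB5B and RAB5C had level ratios of −0.18 and −0.21.

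Of the GTPase-activating proteins and other TBC1D genes, 22 of 31 had implied levels below the median of all genes in old cells, and their median was −0.09. With young female values from the sex table this median was −0.02, and 18 of 31 ratios were below 0. Against the median of all genes, which moved as well, 22 of 31 were still below. TBC1D24, a gene of synaptic vesicle traffic, had a level ratio of −0.75. Its half-lives were 2.06 h in young and 1.37 h in old cells and its rates 90.4 and 81.0. TBC1D2, which switches off RAB7, had a level ratio of −0.72, with a rate of 100.1 against 50.2. Its young female half-life was among the less stable between tables, as given above. Above the median stood TBC1D31, a centrosomal protein, at 0.69, with a rate of 148 against 276. TBC1D1, a target of insulin and AMPK signalling that controls RABs of glucose transporter vesicles, stood at 0.66, with a rate of 555 against 821. Its relative TBC1D4, which acts in the same pathway, had a level ratio of −0.01. GDI2 had a level ratio of 0.01.

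**Figure D3:**
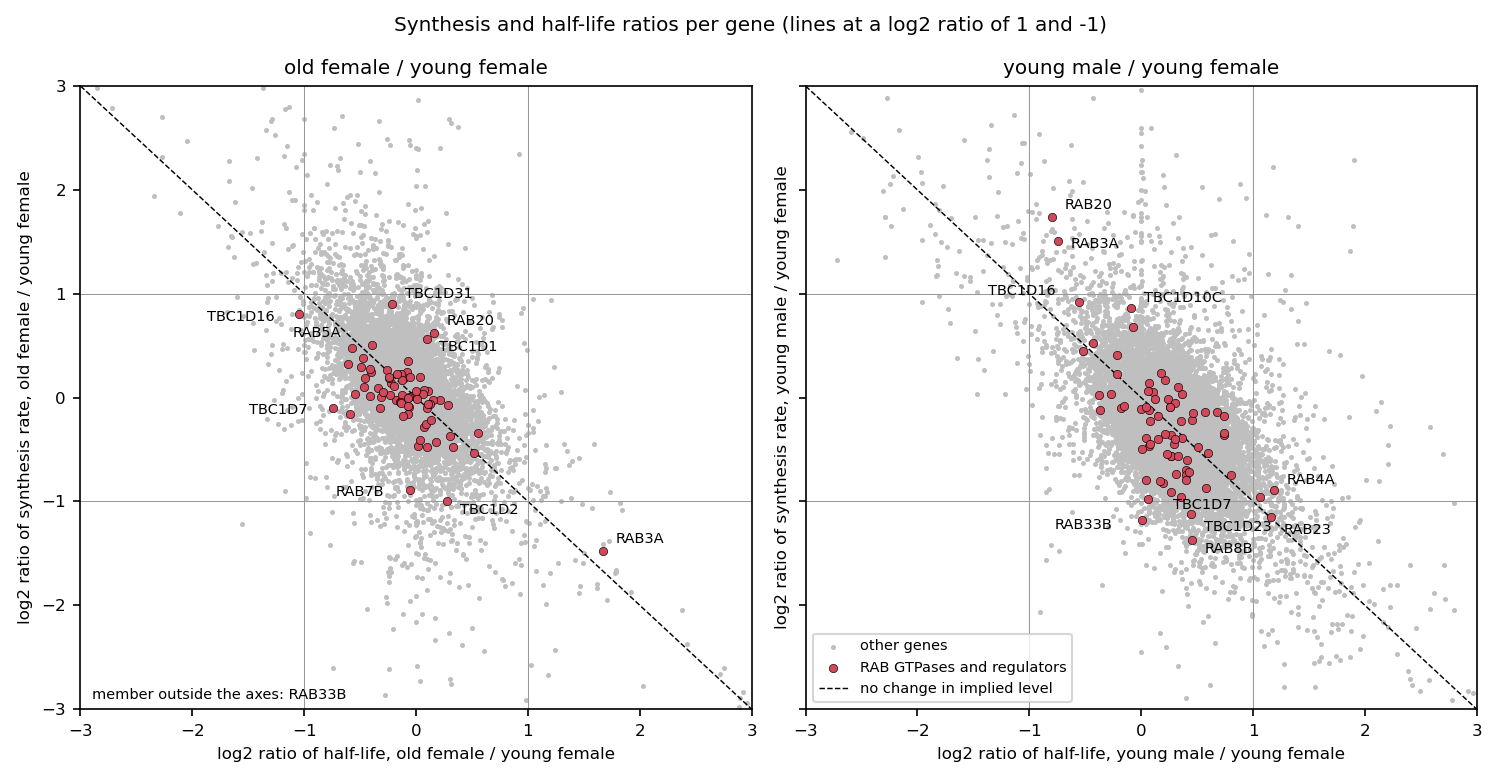
Log2 ratio of half-life (x axis) against log2 ratio of synthesis rate (y axis) for old against young female cells (left) and young male against young female cells (right). Red points are the RAB GTPases and regulators, grey points the other genes, some of which lie outside the axes; the dashed line marks an unchanged implied level, and most members lie within 1 unit of 0 on both axes.

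The comparison of young male with young female cells asks how RNA kinetics differ by sex. All genes shifted here: the median log2 ratio was 0.27 for half-life and −0.28 for synthesis rate. Members moved with them, with medians of 0.25 and −0.28. With young female values from the age table the synthesis median was −0.42 for members and −0.37 for all genes, and 64 of 75 members were lower. Half-lives were longer in male cells for 61 of 76 members and synthesis rates lower for 57 of 76, but relative to the median of all genes only 31 half-lives were longer and 38 rates lower. For half-life 3 of 76 members passed the threshold (3.95%), compared with 7.58% of all genes. They were RAB4A, RAB23 and TBC1D7, all longer in male cells (5.62% of all genes). None was shorter past it (1.96%), and 0 of these 3 passed after the shift of all genes was taken off.

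RAB4A went from 6.04 h in female to 13.8 h in male cells, a log2 ratio of 1.19, or 0.92 relative to all genes. RAB23, which restrains Hedgehog signalling and acts at cilia, had 2.48 and 5.57 h, a ratio of 1.16, or 0.89 relative to all genes. TBC1D7 had 3.27 and 6.82 h, a ratio of 1.06, or 0.79 relative to all genes. In each of these genes the synthesis rate differed the opposite way. It was 78.7 against 42.3 for RAB4A, 310 against 140 for RAB23 and 78.9 against 40.7 for TBC1D7. Implied levels therefore stayed close, with log2 ratios of 0.30, 0.01 and 0.11. Low synthesis rates left RAB4A and TBC1D7 out of the upper 75% of genes by mean rate, where only RAB23 remained.

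Relative to the shift of all genes, RAB20 and RAB3A had shorter half-lives in male cells by more than the threshold. RAB20 had 2.16 h in female and 1.24 h in male cells, a ratio of −0.80, or −1.07 relative to all genes. RAB3A had 1.40 and 0.835 h, a ratio of −0.74, or −1.02 relative to all genes, but against its 0.00642 h in the age table the male half-life is longer, past the threshold, so no direction was read for it. Of the 15 members with shorter half-lives in male cells, the next by size were TBC1D16 (−0.55), TBC1D17 (−0.52), TBC1D10A (−0.43) and RAB9A (−0.38). RAB9A was read as shorter with 1.31 h as its young female value, and with the 1.10 h of the age table the gap to the male 1.01 h is smaller.

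For synthesis rate 6 of 76 members passed (7.89%), compared with 12.2% of all genes. The 2 higher in male cells (3.78% of all genes) were RAB20, from 50.0 to 167 (log2 ratio 1.74), and RAB3A, from 48.8 to 138, whose log2 ratio turned to −6.13 with its young female value from the age table. The 4 lower (8.37% of all genes) were RAB8B, from 2011 to 776 (−1.37), RAB33B, from 188 to 82.7 (−1.18), RAB23 (−1.15) and TBC1D23, from 1660 to 762 (−1.12). TBC1D23 tethers endosome-derived vesicles at the Golgi. With young female values from the age table, 1 was higher and 8 were lower, where RAB3A, TBC1D2, TBC1D5 and TBC1D7 joined the lower ones. Relative to the median of all genes RAB20 (2.02), RAB3A (1.78) and RAB8B (−1.10) were still past the threshold, and RAB33B (−0.90), RAB23 (−0.87) and TBC1D23 (−0.84) were not. TBC1D16 (1.20) and TBC1D10C (1.14), which lay under the threshold as listed, passed it on that scale.

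For implied level 1 of 76 members passed (1.32%), compared with 4.61% of all genes. It was RAB33B, 2.25-fold lower in male cells (log2 ratio −1.17; 1.61% of all genes were lower past the threshold). As listed, its half-lives of 1.51 and 1.52 h were close and the difference lay in the synthesis rate, a split whose part of estimation was not tested. It passed under each setting tried with the threshold of 1. In old cells the level ratio of RAB33B was −0.35. TBC1D25, known to switch off RAB33B on autophagosomes, had level ratios of −0.10 in male and 0.05 in old cells. The next largest implied level ratios in male cells were those of RAB20 (0.94), TBC1D2 (−0.92) and RAB8B (−0.91), followed by TBC1D10C (0.77), RAB3A (0.76) and TBC1D4 (−0.75). RAB20 was thus 1.92-fold higher and RAB8B 1.88-fold lower in male cells. RAB8A, the relative of RAB8B, had a level ratio of 0.40, with half-lives of 6.80 and 11.4 h and rates of 2325 and 1835 in female and male cells.

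By role, implied levels in male cells were below the median of all genes for 6 of the 8 RABs of the endoplasmic reticulum and Golgi, with a median log2 ratio of −0.21. RAB33B was the lowest of these. RAB18, of the endoplasmic reticulum and lipid droplets, had −0.35 and RAB2B −0.29, while RAB1B had 0.20 and RAB2A 0.06. Early endosome RABs were below it in 5 of 7, the exceptions being RAB20 and RAB31 (0.38), which moves between Golgi and endosomes. The half-life of RAB31 was 4.36 h in female and 7.27 h in male cells. RABs of recycling and delivery were split, with 6 of 13 above. RAB40B (0.61) and RAB8A were the highest of these, and RAB8B and RAB14 (−0.40), of traffic between the Golgi and endosomes, the lowest. RAB10, which delivers vesicles to the plasma membrane, had half-lives of 5.52 and 7.30 h, rates of 912 and 564 and a level ratio of −0.29. GDI2 had a level ratio of 0.23.

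Of the GTPase-activating proteins and other TBC1D genes, 18 of 31 had levels below the median of all genes in male cells. RAB3GAP1 and RAB3GAP2 were lower together, at −0.63 and −0.39, with rates of 507 against 271 and 603 against 348. TBC1D5, which binds retromer and restrains RAB7, had −0.60, and TBC1D9 −0.64. TBC1D19 (0.56), TBC1D2B (0.44) and TBC1D1 (0.40) stood above it, so TBC1D1 and TBC1D4 lay on opposite sides. TBC1D20, which switches off RAB1, had half-lives of 3.31 and 3.61 h, rates of 1234 and 1220 and a level ratio of 0.11. Among RAB11 family interacting proteins, which link RAB11 to motors and membranes, RAB11FIP1 was the lowest (−0.63, rate 885 against 499) and RAB11FIP5 the highest (0.38, rate 2634 against 2952). RABGEF1, which activates RAB5, had half-lives of 1.57 and 1.41 h and a level ratio of −0.23.

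**Figure D4:**
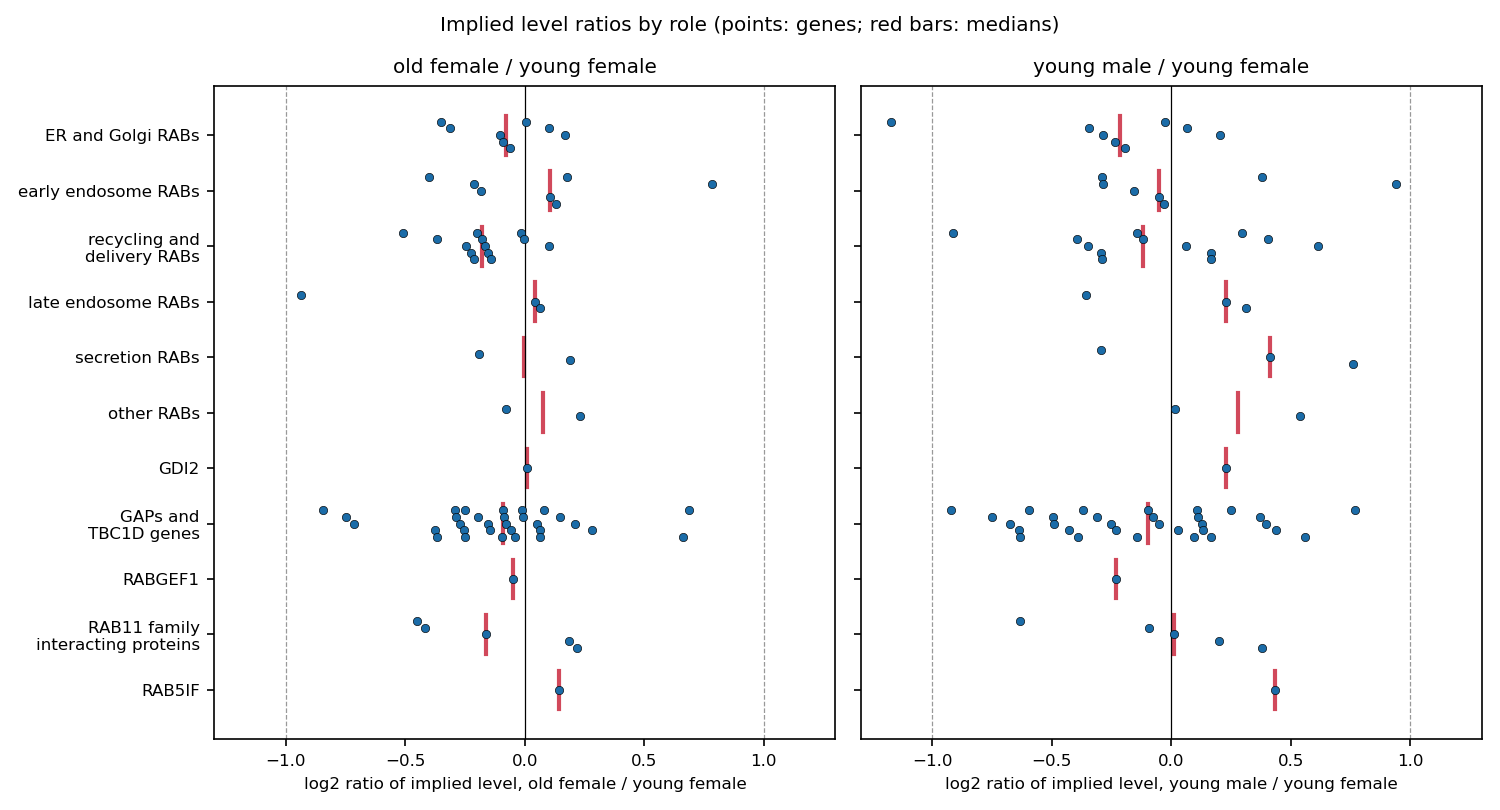
Log2 ratio of implied level by role for old against young female cells (left) and young male against young female cells (right). Points are genes, red bars are medians of the role, and dashed lines mark a log2 ratio of 1 and −1; RAB33B in male cells is the only point past them.

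Ratios of half-life and synthesis rate opposed each other in sign for 55 of 75 members by age (73.3%, compared with 70.4% of all genes) and for 64 of 76 by sex (84.2%, compared with 76.2%). Both are estimated from the same reads, and the pair of RAB3A estimates for young female cells also moved in opposite directions. The part of estimation in this pattern was not tested. Both comparisons use the young female samples, so values for a gene in both are not independent. RAB20, for example, had a level ratio of 0.78 by age and 0.94 by sex, and TBC1D2 had −0.72 and −0.92.

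Other genes of RAB control were taken from a list of 85 exchange factors, prenylation factors, GTPase-activating proteins and effectors that carry other names, of which 69 had values. In old cells 0 of 69 were past the threshold for half-life, 1 was past it for synthesis rate and the same number for implied level, where the shares of all genes were 3.53%, 7.52% and 4.12%. This was DENND2D, an exchange factor of the DENN family, with rates of 48.0 in young and 148 in old cells and a level ratio of 1.31. In male cells 1 of 68 passed for half-life, 3 for synthesis rate, all lower, and 1 for implied level, where the shares of all genes were 7.58%, 12.2% and 4.61%. DENND6A had a half-life ratio of 1.01, or 0.74 relative to all genes, and a synthesis ratio of −1.52. DENND4C, which activates RAB10, had a synthesis ratio of −1.51 and a level ratio of −1.03, and EVI5, a TBC protein, had a synthesis ratio of −1.59 and a level ratio of −0.71. All 4 prenylation factors, which attach the lipid that anchors RABs in membranes, stayed under the threshold in both comparisons as listed. CHML came closest, with a synthesis rate of 29.2 in young and 58.3 in old cells, and it would pass against its young female rate of 24.5 in the sex table.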

How the data were processed

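RNA was poly(A)-selected and sequenced strand-specifically after 15 min of alkylation with iodoacetamide, per the labels' protocols, which makes incorporated 4-thiouridine readable as a base change. The submitters' processing notes name cutadapt 4.5, STAR 2.5.3 and the build EquCab3.0. The kinetic model, annotation, gene filter and pooling of replicates are not given in the sources used here. The authors deposited 2 tables with 1 synthesis rate and 1 half-life per gene and group, per the file headers, so samples enter only through group values (0 columns of values per sample). Half-lives were read as hours, which is an assumption. They stop at 69.3, a decay rate of 0.01 per unit of time whatever the unit, so the ceiling does not settle it. The shares new after 4 h and the range of 1 to 24 h rest on this reading.

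Log2 ratios, implied levels and medians were computed within a table over all its genes, with no pseudocount and no filter; RefSeq (TB-T2T, not the build the submitters name) served for names and neighbours only. Calculations used Python 3.11.15 and pandas 2.3.3, and the code was tested on simulated data. A member counted as past the threshold at an absolute log2 ratio of at least 1. No test was run. Named genes were those past the threshold, the 5 longest and shortest half-lives and highest and lowest synthesis rates in young female cells, lettered relatives, GDI2, and related genes past the threshold; further genes were picked after their values were seen, to fill in a role or stand nearest the threshold. The members, roles and lists were chosen with earlier results of these data known, and roles follow general knowledge. Of the members, 1 enters the counts and medians but is not reported here by name or value, and the plots leave it out. Alternatives were a threshold of 0.5, half-lives of 1 to 24 h, centring on the median of all genes, the upper 75% by mean synthesis rate, the other table's young female values and, added after seeing the data, removal of half-lives under 0.5 h.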

Additional observations from a re-analysis of the deposited data

How the results depend on the processing

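No paired analysis was possible because the tables hold 1 value per group and none per sample; for the same reason leaving out a sample was not run. Without replicates, a count (its total over both directions) or a fold between relatives was taken as the same within 1.5 times. A median log2 ratio was taken as the same within 0.05. At a threshold of 0.5, members past it in half-life numbered 10 by age (13.3%, all genes 13.4%) and 16 by sex (21.1%, all genes 31.8%). In synthesis rate they numbered 10 (13.3%, all genes 23.0%) and 31 (40.8%, all genes 41.1%), and in implied level 8 (10.7%, all genes 15.6%) and 15 (19.7%, all genes 24.98%). Within 1 to 24 h, 1 was left for half-life and 0 for synthesis rate by age (all genes 0.889% and 4.73%), and leaving out half-lives under 0.5 h, chosen after seeing the data, also gave 1 and 0 (all genes 1.60% and 5.68%). The upper 75% by mean synthesis rate left 1, RAB23, for half-life by sex (1.56%, all genes 4.10%). That filter also turned the log2 ratio of the members' median half-life to that of all genes, from −0.16 to 0.047. With the other table's young female values, RAB3A turned to −6.10 for half-life and 6.15 for synthesis rate by age and to −6.13 for synthesis rate by sex, and its half-life by sex turned to longer, past the threshold. The synthesis calls by sex went from 2 higher and 4 lower to 1 and 8 under that setting. Their total, 9 against 6, stayed within the limit although the split did not. The median synthesis ratio of all genes by sex was then −0.37 in place of −0.28. The members' median implied level ratio by age moved from −0.09 to −0.03 under that setting, and that of all genes from 0.00 to 0.07. Among relatives, the fold between half-lives moved in male cells to 1.20 for RAB4 and 6.94 for RAB3. The other 44 alternative values of the total counts, the baseline and the folds between relatives stayed within these limits. Centring on the median of all genes left the counts within them, but other genes passed: for half-life by sex, RAB20 and RAB3A downward in place of 3 upward, for synthesis rate by sex 4 higher and 1 lower, and for synthesis rate by age TBC1D2 in addition, downward.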
